A study of Homo sapiens with 8 samples.

Results

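The 10 genes described here build or regulate the contractile actomyosin apparatus, and were taken by name rather than by any measured value. They are ACTA2, ACTB, ACTN1, MYH9, MYL9, MYLK, TAGLN, CNN1, TPM1 and TPM2, all of which are listed among the 25369 gene symbols of the table. Of these, 9 passed the filter for testing, which required at least 10 normalized counts in at least 2 libraries and kept 13369 genes, while CNN1 did not. Expression was measured by RNA-seq in MCF10A cells, a spontaneously immortalized human mammary epithelial line, after 7 days of encapsulation in 1 of 4 hydrogels, with 2 libraries per gel. Soft IPNs and stiff IPNs were interpenetrating networks of alginate and reconstituted basement membrane (rBM) that differed in calcium crosslinking of the alginate. Soft col:rBM gels combined type I collagen (col-1) with rBM, and stiff col gels held denser col-1 without rBM. All libraries came from cells in gels at passages 8 to 15, and cells grown on flat substrates were not analysed here. Stiff col gels and stiff IPNs thus differ in col-1, rBM, alginate and its calcium crosslinking together. The effects of these components cannot be told apart. Stiffness likewise changed together with col-1 density and rBM between soft col:rBM and stiff col gels, and together with calcium between the IPNs.

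In contractile cells, myosin II motors pull on antiparallel actin filaments that are held in register by the crosslinker alpha-actinin and coated by tropomyosin. Contraction is switched on when myosin light chain kinase (MYLK) phosphorylates the regulatory light chain, of which MYL9 encodes a form. ACTA2, TAGLN and CNN1 are best known from smooth muscle and myofibroblasts, and many of these genes are transcribed by serum response factor (SRF) through the CArG box in their promoters. CATTCC is the motif bound by TEAD factors, the DNA-binding partners of YAP.

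Values are given as normalized counts, which are read counts that the authors divided by 1 factor per library and rounded. Each library held an estimated 13064422 to 18592366 reads on genes, so that 3 reads corresponded to 2.41 to 3.73 normalized counts depending on the library, and these limits cover counting error only. The epithelial label was checked against the keratin and adhesion markers KRT5, KRT14, KRT17, TP63, KRT8, KRT18, KRT19, CDH1 and EPCAM, whose summed level was between 23926 and 136707 normalized counts. The sum does not speak for every marker. KRT19, a luminal keratin, did not exceed 6 normalized counts in any library, and EPCAM stood between 102 and 434. Of 8 smooth muscle markers, 5 stood at or under 3 reads in every library. MYH11, the smooth muscle myosin heavy chain, and MYOCD, its upstream activator, did not exceed 1 normalized count. As cells were assayed in bulk, fewer cells of a type and less RNA per cell cannot be told apart.

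Promoter windows from RefSeq (GRCh38.p14, 250 bases before to 50 bases after a transcription start) were matched by symbol for 7 of the 10 genes, in 12 windows. Windows for ACTB, MYL9 and TAGLN were not used here. Among the matched genes, both ACTA2 windows are shown because ACTA2 differed between gels, TPM1 because its libraries did not overlap between the IPNs, and MYLK because it holds a CArG box. Each is written 5′ to 3′ on the strand of the gene, and capitals mark matches to a CArG box or to CATTCC on either strand (GGAATG on the other strand). A CArG box was counted only as an exact match to CCWWWWWWGG, where W is A or T. Near matches with a mismatched base, such as ccctatatgg and ccttgtttgg in the ACTA2 window at chr10:88952724-88953023, were neither marked nor counted.
ACTA2, chr10:88991288-88991587, minus strand: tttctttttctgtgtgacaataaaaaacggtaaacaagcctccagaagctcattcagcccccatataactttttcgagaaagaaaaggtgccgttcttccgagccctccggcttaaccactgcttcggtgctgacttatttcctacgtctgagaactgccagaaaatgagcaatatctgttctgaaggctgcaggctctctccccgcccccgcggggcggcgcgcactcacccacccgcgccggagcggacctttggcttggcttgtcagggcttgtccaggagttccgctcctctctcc
ACTA2, chr10:88952724-88953023, minus strand: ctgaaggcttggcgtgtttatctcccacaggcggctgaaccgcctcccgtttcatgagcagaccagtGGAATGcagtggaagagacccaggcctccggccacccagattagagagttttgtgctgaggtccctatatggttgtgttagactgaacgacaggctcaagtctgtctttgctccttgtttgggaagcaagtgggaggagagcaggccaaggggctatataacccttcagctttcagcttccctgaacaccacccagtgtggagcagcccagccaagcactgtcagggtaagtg
TPM1, chr15:63048239-63048538, plus strand: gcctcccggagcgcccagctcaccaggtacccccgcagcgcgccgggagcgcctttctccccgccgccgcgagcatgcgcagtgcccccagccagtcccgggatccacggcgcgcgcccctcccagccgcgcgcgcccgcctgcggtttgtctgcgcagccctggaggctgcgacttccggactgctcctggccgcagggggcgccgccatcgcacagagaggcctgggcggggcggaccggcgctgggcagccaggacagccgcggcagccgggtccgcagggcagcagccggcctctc
MYLK, chr3:123620499-123620798, minus strand: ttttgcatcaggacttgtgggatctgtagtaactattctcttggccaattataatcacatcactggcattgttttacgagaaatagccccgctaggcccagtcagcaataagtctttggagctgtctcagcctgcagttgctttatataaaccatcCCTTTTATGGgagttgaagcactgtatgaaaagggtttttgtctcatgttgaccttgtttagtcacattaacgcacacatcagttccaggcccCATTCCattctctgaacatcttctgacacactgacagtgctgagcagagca
A CArG box occurred in 1.29% of 35116 RefSeq promoter windows of this length, CATTCC in 14.03% and TATAAA in 11.53%, each searched on both strands. The MYLK window held a CArG box at position -94 from the start, a CATTCC at position -1, and a TATAAA on each strand at positions -109 and -105, which overlap each other. Another CArG box was found in 1 of 4 ACTN1 windows, at position -171, beside a CATTCC at position -154 and a TATAAA on the other strand at position -122. CATTCC on the other strand was found in 1 of the 2 ACTA2 windows, at position -183, and in the MYH9 window, at position -70. The CNN1, TPM1 and TPM2 windows held none of the 3 letter strings, which says nothing on the factors themselves.

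ACTB, on chromosome 7 (hg19 chr7:5566040-5603533, minus strand), encodes the cytoplasmic beta-actin of all cells. Its normalized counts in replicates 1 and 2 were 45083 and 90848 in soft IPNs, 61610 and 103842 in stiff IPNs, 52295 and 64767 in soft col:rBM gels, and 41477 and 58318 in stiff col gels. Replicate 2 was the higher library in every gel, and stiff IPNs lay above stiff col gels without overlap. Of the 50-base stretches of its main transcript, 10.89% also occur in pseudogenes and POTE genes, so its reads may have been partly lost or shared. ACTA2 (hg19 chr10:90694831-90751096, minus strand) encodes smooth muscle alpha-actin, which is incorporated into contractile stress fibers. It stood at 788 and 510 normalized counts for soft IPN, 377 and 152 in stiff IPNs, 720 and 339 in soft col:rBM gels, and 722 and 319 in stiff col gels. Stiff IPNs were the lowest gel within each replicate number, the 2 stiff IPN libraries lay below both soft IPN libraries, and replicate 2 was the lower library in every gel. On the opposite strand, FAS and ACTA2-AS1 overlap 35.86% of its annotated exonic bases, and 7.13% are shared with an unnamed gene on the same strand. FAS stood at 804 and 1064 normalized counts for soft IPN and 1094 and 1070 for stiff IPN.

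ACTN1 (hg19 chr14:69340845-69446157, minus strand) encodes alpha-actinin 1, which bundles filaments and anchors them at adhesions. Its normalized counts were 4689 and 7604 in soft IPNs, 5969 and 6847 in stiff IPNs, 5731 and 6700 in soft col:rBM gels, and 5670 and 6985 in stiff col gels. All 4 gels overlapped, and the highest library was 1.62 times the lowest.

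MYH9 (hg19 chr22:36677326-36784055, minus strand) encodes the heavy chain of non-muscle myosin IIA, the motor itself. It stood at 9299 and 17909 normalized counts for soft IPN, 10108 and 14487 in stiff IPNs, 10073 and 14389 in soft col:rBM gels, and 8092 and 13016 in stiff col gels. Every gel overlapped every other, with replicate 2 above replicate 1 in each. MYL9 (hg19 chr20:35169900-35179850, plus strand) was at 96 and 91 normalized counts for soft IPN, 136 and 1292 in stiff IPNs, 164 and 65 in soft col:rBM gels, and 202 and 137 in stiff col gels. Replicate 2 of stiff IPN stood far above the other 7 libraries, at 6.40 times the next highest. MYLK (hg19 chr3:123328896-123603179, minus strand) was low throughout, at 15 and 30 normalized counts for soft IPN, 17 and 41 in stiff IPNs, 27 and 24 in soft col:rBM gels, and 24 and 29 in stiff col gels. Its gels overlapped, and at this depth small differences in MYLK were not detectable.

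TAGLN (hg19 chr11:117070086-117078180, plus strand) encodes transgelin, a calponin-family protein that binds and stabilizes actin filaments. It stood at 16 and 64 normalized counts for soft IPN, 111 and 2728 in stiff IPNs, 12 and 29 in soft col:rBM gels, and 40 and 100 in stiff col gels. Both stiff IPN libraries were above all other libraries, the replicate 1 library by a small margin and the replicate 2 library at 24.6 times the next highest. Of the annotated exonic bases of TAGLN, 38.14% are shared with an unnamed gene annotated on the same strand and 34.09% with PCSK7 on the opposite strand. The library kit did not mark strand, so reads from shared bases cannot be told apart. PCSK7 had 742 and 1234 normalized counts in stiff IPNs and 513 and 927 in soft IPNs, and its part in the TAGLN value was not tested. CNN1 (hg19 chr19:11649582-11661138, plus strand), calponin 1 of differentiated smooth muscle, was at 0 in all 8 libraries, which allows up to 2.41 to 3.73 normalized counts.

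TPM1 (hg19 chr15:63334819-63364114, plus strand) and TPM2 encode tropomyosins, which lie along the filament and set the access of myosin and other proteins to it. TPM1 stood at 1248 and 1069 normalized counts for soft IPN, 1754 and 4421 in stiff IPNs, 1736 and 1298 in soft col:rBM gels, and 1373 and 1329 in stiff col gels. Both stiff IPN libraries were above the other 6, replicate 1 only just. An antisense gene, TPM1-AS, accounts for most of the 22.69% of annotated TPM1 exonic bases shared with the opposite strand. TPM2 (hg19 chr9:35681989-35690053, minus strand) was at 3372 and 4144 normalized counts for soft IPN, 2926 and 4362 in stiff IPNs, 3012 and 3083 in soft col:rBM gels, and 3172 and 3604 in stiff col gels. Its 2 stiff IPN libraries were the lowest and the highest of all 8. The ratio of TPM1 to TPM2 normalized counts, which carries no correction for length, was 0.599 and 1.01 in stiff IPNs and 0.258 to 0.576 in the other 6 libraries.

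**Figure D1:**
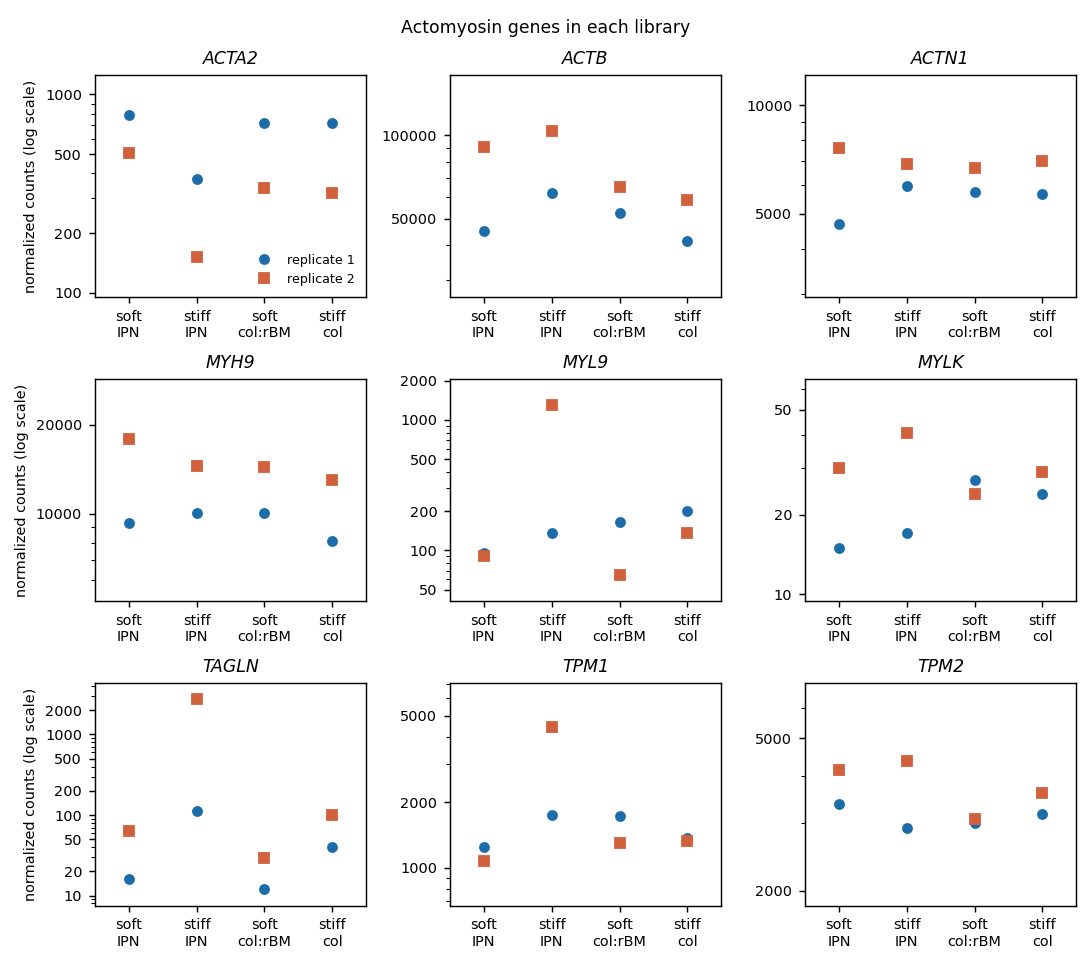
Normalized counts (log axis, with its own range for each gene) of the 9 tested contractile genes in the 4 gels, with a circle for replicate 1 and a square for replicate 2. The stiff IPN square stands apart for TAGLN (2728), MYL9 (1292) and TPM1 (4421), and the stiff IPN libraries are the lowest of their replicate number for ACTA2 (377 and 152).

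Levels were compared between genes only per kilobase of 1 GENCODE transcript each. On that scale the mean level over the 8 libraries was 35751 normalized counts per kb for ACTB and 2907 for TPM2. It was 1686 for ACTN1, 1634 for MYH9 and 1461 for TPM1, whose libraries overlapped widely, and 364 for ACTA2. TAGLN and MYL9 followed at 102 and 97.9 normalized counts per kb, with means that rest largely on replicate 2 of stiff IPN, and MYLK was lowest at 2.56. The replicate 2 library of stiff IPN moved TAGLN to 721 normalized counts per kb, above the 113 of ACTA2 in the same library, whereas TAGLN was below ACTA2 on this scale in the other 7 libraries.

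The comparison of stiff with soft IPN asks which genes change with stiffness and its calcium crosslinking together, with the rBM content kept. Effects of stiffness and of calcium cannot be told apart here. ACTA2 was lower and TAGLN higher in stiff IPNs when libraries of the same replicate number were compared, and the other 7 genes tested were not called. ACTA2 differed by a log2 fold change of -1.40 (SE 0.19, adjusted p = 0.0207) and TAGLN by 4.06 (SE 0.73, adjusted p = 0.0344), both with limma and the replicate number as a block. Within replicates 1 and 2 the log2 difference was -1.06 and -1.74 for ACTA2 and 2.72 and 5.39 for TAGLN. Without the block none of the 9 genes, and 0% of all 13369 genes, passed limma's adjusted threshold of 0.05, with an adjusted p of 0.53 for ACTA2 and 0.499 for TAGLN. At an unadjusted p under 0.05 without the block, 1245 genes passed, or 9.31%, among them ACTA2, TAGLN and TPM1. With the block, 2 of the 9 genes were called against 3.82% of all genes tested, with TAGLN in the 1.69% called higher and ACTA2 in the 2.13% called lower. These calls rest on treating libraries of 1 replicate number as belonging together, which the sources used here do not state. Over all genes, the shift between replicate numbers correlated more weakly between the IPNs (Pearson's r = 0.278) than between any other pair of gels.

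MYL9 and TPM1 were also higher in both stiff IPN libraries than in either soft IPN library, but were not called. MYL9 differed by 2.16 (SE 0.89) on the log2 scale, with an adjusted p of 0.185 by limma with the block, and TPM1 by 1.27 (SE 0.37), with an adjusted p of 0.0895. Their differences were uneven between replicates, at 0.50 and 3.81 for MYL9 and 0.49 and 2.05 for TPM1 within replicates 1 and 2. Counting TAGLN, MYL9, TPM1 and ACTA2, 4 of the 9 genes had libraries that did not overlap between the 2 IPNs, close to the 41.9% of all genes tested. Non-overlap by itself carries little weight, since an exact two-sided permutation test of 2 libraries against 2 cannot go below p = 0.333.

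The motor, the crosslinker, beta-actin and TPM2 were not called between the IPNs. With the block, the 95% interval of the log2 difference ran from -0.13 to 0.77 for ACTB, from -0.28 to 0.48 for ACTN1 and from -0.68 to 1.29 for MYLK. It ran from -0.46 to 0.28 for MYH9 and from -0.44 to 0.31 for TPM2, whose signs depended on how libraries were scaled. MYLK, the gene with the lowest counts, had the widest of these intervals.

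Replicate 2 of stiff IPN stood apart for several of these genes. Among the 9 genes tested, 6 had their highest value there (ACTB, MYL9, MYLK, TAGLN, TPM1 and TPM2), against 23% of all genes tested, and ACTA2 had its lowest, against 23.8%. TAGLN, MYL9 and TPM1 were at least 2 times the next highest library there, as were 1.71% of all genes, and TAGLN and MYL9 at least 5 times, as were 0.0898% of all genes. At 24.6 times, TAGLN had the largest such excess of the 13369 genes, MYL9 ranked 6 with 6.40 times and TPM1 ranked 113 with 2.52 times. When this library was left out and the block kept, TAGLN differed by 2.49 (adjusted p = 0.0191, limma) and ACTA2 by -1.23 (adjusted p = 0.0204), with the lone stiff IPN library assumed to vary like the other gels. Without replicate 1 of stiff IPN the TAGLN difference was 5.62. The TAGLN call ended whichever soft IPN library was left out, with a difference of 4.27 without replicate 1 and 3.84 without replicate 2. For ACTA2 the call ended without replicate 2 of soft IPN (-1.12) but not without replicate 1 (-1.68). TAGLN narrowly missed the threshold without either stiff col library, at an adjusted p of 0.0507 and 0.0517. In a blocked fit of the 4 IPN libraries alone, in which 2.33% of all genes were called, ACTA2 was called (adjusted p = 0.0125, limma) and TAGLN was not (0.0681).

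**Figure D2:**
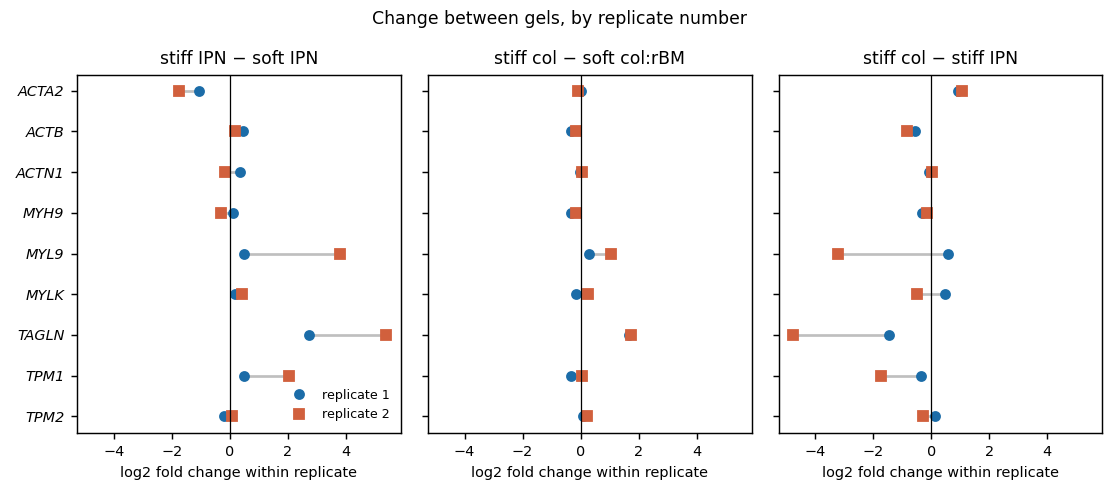
Log2 difference within replicate 1 (circles) and replicate 2 (squares) for 3 comparisons of gels, joined by a line for each of the 9 tested genes. TAGLN is right of 0 in both replicates for stiff against soft IPN (2.72 and 5.39) and for stiff col against soft col:rBM (1.66 and 1.75), while ACTA2 is left of 0 in the IPNs (-1.06 and -1.74) and close to 0 in the collagen-containing gels (0.004 and -0.09).

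Stiff col gels were compared with stiff IPNs to ask what changes with col-1, rBM, alginate and its calcium crosslinking together among stiff gels. ACTA2 was higher in stiff col gels within each replicate number, TAGLN, TPM1 and ACTB were lower without overlap, and of these only ACTA2 was called. The ACTA2 difference was 1.0 on the log2 scale (SE 0.19, adjusted p = 0.0418, limma with the block), at 0.94 and 1.06 within replicates 1 and 2. Without the block its adjusted p was 0.821, and the libraries of the 2 gels overlapped, with 722 and 319 against 377 and 152 normalized counts. With the block 1 of the 9 genes was called, against 2.47% of all genes, and without it none, against 0% and 838 genes (6.27%), TPM1 among them, at an unadjusted p under 0.05. The ACTA2 call was lost, at an adjusted p between 0.0505 and 0.351, whichever library other than replicate 1 of stiff IPN was left out. It was also lost in a blocked fit of these 4 libraries alone (adjusted p = 0.0958, limma), in which 1.95% of all genes were called.

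TAGLN differed by -3.10 between stiff col and stiff IPN (SE 0.73, adjusted p = 0.0723, limma with the block), at -1.45 and -4.76 within the replicates. For TPM1 the difference was -1.04 (adjusted p = 0.182) and for ACTB -0.70 (adjusted p = 0.108), each of the same sign in both replicates. MYL9 went in opposite directions, with 0.57 in replicate 1 and -3.23 in replicate 2. The 3 genes without overlap, TAGLN, TPM1 and ACTB, stand against 30.9% of all genes tested. The stiff IPN libraries are shared with the comparison of stiff and soft IPN, so these values are not independent of those above.

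Between stiff col and soft col:rBM gels no contractile gene was called, with or without the block, as was the case for 0% of all genes. TAGLN stood at 40 and 100 normalized counts in stiff col and 12 and 29 in soft col:rBM gels, a log2 difference of 1.70 that was even across replicates (1.66 and 1.75). Its adjusted p was 1 with and without the block, and the 95% interval with the block ran from 0.02 to 3.39. ACTA2, lower in the stiff IPNs, differed by -0.04 here, with an interval from -0.49 to 0.40 with the block. TAGLN and TPM2 were the 2 of 9 genes without overlap between the collagen-containing gels, against 19% of all genes. At an unadjusted p under 0.05 without the block 140 genes passed, or 1.05%, none of them contractile genes described here. A fit with the block of these 4 libraries alone, which leaves 1 residual degree of freedom, called TAGLN (adjusted p = 0.00111), MYL9 (0.04) and ACTB (0.0372) by limma, 3 of 9 genes against 7.07% of all genes.

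Soft col:rBM gels and soft IPNs, which differ in col-1 and alginate at low stiffness, were also compared. No contractile gene was called, against 0.0224% of all genes with the block and 0% without it. At an unadjusted p under 0.05 without the block 190 genes passed, or 1.42%, none of them contractile genes described here. TPM1 differed by 0.38 and TPM2 by -0.29 on the log2 scale without overlap, 2 of 9 genes against 20.7%, and with the block their adjusted p by limma was 1 and 0.999. TAGLN differed by -0.75, with an interval from -2.43 to 0.93.

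Whether the difference between stiff and soft gels was unlike in the collagen gels and in the IPNs was tested as an interaction. The interaction is the stiff-to-soft difference in collagen gels minus that in IPNs. Soft col:rBM and stiff col gels also differ in col-1 density and rBM, and soft and stiff IPNs in calcium. An effect of stiffness alone therefore cannot be isolated. No contractile gene was called, against 0.015% of all genes with the block and 0% without it. Without the block 278 genes, or 2.08%, had an unadjusted p under 0.05, of which TPM1 was the only contractile gene described here. The interaction was 1.36 for ACTA2 (adjusted p = 0.18, limma with the block), -1.42 for TPM1 (0.422), -2.35 for TAGLN (0.509) and -1.47 for MYL9 (0.748). Without replicate 2 of stiff IPN, and without the block, the interaction was -0.0482 for TAGLN, 0.15 for MYL9, -0.75 for TPM1 and 0.71 for ACTA2. A stiff-to-soft difference that was unlike in the 2 kinds of gel was therefore not shown for any of the genes.

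Several contractile genes also differed between the 2 replicate numbers. Replicate 2 was lower than replicate 1 for ACTA2 in all 4 gels, at 0.40 to 0.65 times, and higher for ACTB, ACTN1, MYH9, TAGLN and TPM2 in all 4 gels. These 5 of 9 genes stand against 21.4% of all genes that were higher in replicate 2 in every gel, and the 1 of 9 against 23.1% that were lower. In the fit with gel and replicate number, the log2 difference of replicate 2 from replicate 1 was -1.05 for ACTA2 (adjusted p = 0.00343, limma). It was 0.67 for MYH9 (adjusted p = 0.00706), 0.64 for ACTB (0.0144) and 2.26 for TAGLN (0.0173), and 27.1% of all genes tested were called, 12.7% higher and 14.4% lower. ACTN1 differed by 0.36 (adjusted p = 0.0564), TPM2 by 0.27 (0.112) and MYLK by 0.57 (0.19). Without the stiff IPN libraries MYL9 differed by -0.65 (adjusted p = 0.0495, limma), against 0.32 (0.732) over all gels, and ACTN1 by 0.41 (0.0222), both called, as were 43.6% of all genes. Without the soft IPN, soft col:rBM or stiff col libraries the TAGLN shift was no longer called, with an adjusted p of 0.0508 to 0.0762. The study's methods speak of independent trials but do not say that a replicate number marks the same trial in every gel, and what differed between the replicates is not given in the sources used here.

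Other pathway genes and markers differed between the replicate numbers as well, and not every called gene is named. Of 13 crosslinkers 1 was called higher and 2 lower, and of 3 actins and tropomyosins 1 was called higher. Among 5 myosin II chains and among 13 focal adhesion genes, 1 each was called lower. Of the markers, 4 of 8 epithelial and 1 of 8 proliferation genes were called higher. Over all genes, 12.7% were called higher and 14.4% lower. Of the crosslinkers PDLIM7 differed by 1.15 (adjusted p = 0.00237, limma) and CNN3, a non-muscle calponin, by -0.96 (0.00623), and of the tropomyosins TPM3 by 0.67 (0.00807). The epithelial genes KRT14 and KRT17 differed by 1.94 (adjusted p = 0.00178) and 1.80 (0.000721), and CD68 by -1.74 (0.00178). Their part in the shift of the contractile genes was not tested.

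**Figure D3:**
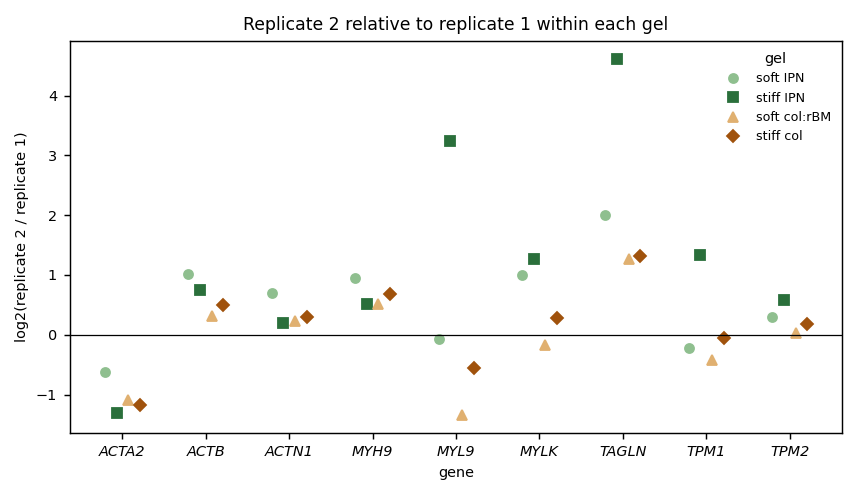
Log2 ratio of replicate 2 to replicate 1 within each of the 4 gels for the 9 tested contractile genes, on a linear axis in log2 units. ACTA2 lies below 0 in all gels and MYH9, ACTB and ACTN1 above it, while the stiff IPN point is far above the other gels for TAGLN and MYL9 (24.6 and 9.50 times on the linear scale).

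Other genes of the pathway were described as lists. Of 6 other actins and tropomyosins, 3 were tested and none was called between the IPNs. TPM4 had the largest difference, 0.52 (adjusted p = 0.143, limma with the block), and ACTG1, the other cytoplasmic actin, differed by -0.23 (0.522). ACTG1 stood at 103854 and 101964 normalized counts in soft against 87091 and 87825 in stiff IPNs. The muscle actins ACTG2, ACTC1 and ACTA1 did not exceed 6 normalized counts. Of 7 other myosin II chains, 5 were tested and none was called, with MYL6B, an essential light chain, at -0.71 (0.0524) and MYL12B, another regulatory light chain, at 0.62 (0.0582). The median log2 difference was 0.12 in the former list and 0.34 in the latter, beside -0.01 over all genes tested.

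Among 13 other actin crosslinkers and thin filament proteins, 1 was called higher in stiff IPNs with the block, against 1.69% of all genes. Of the 13, 5 had a positive difference, and the median was -0.10. The called gene was PDLIM7, a PDZ and LIM domain protein that associates with actin filaments. Its normalized counts were 527 and 1108 in soft IPNs against 864 and 2637 in stiff IPNs, a difference of 0.98 (adjusted p = 0.0366, limma with the block). Without the block PDLIM7 was not called, at an adjusted p of 0.621.

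Between stiff col and stiff IPN, no gene was called of the lists of other actins, myosin chains and crosslinkers, nor was any of these called between the collagen-containing gels. Neither SRF, MKL1 and MKL2, its cofactors, nor any of 13 focal adhesion and stress fiber genes was called in a comparison of gels. SRF stood at 634 and 764 normalized counts in soft against 592 and 955 in stiff IPNs, a difference of 0.11 (adjusted p = 0.722, limma with the block), and MKL2 differed by -0.24 (0.532). For the focal adhesion list 3 of 13 genes had a positive difference between the IPNs, with a median of -0.18, TLN1 at -0.66 (0.113) and TGFB1I1 at -0.64 (0.179).

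**Figure D4:**
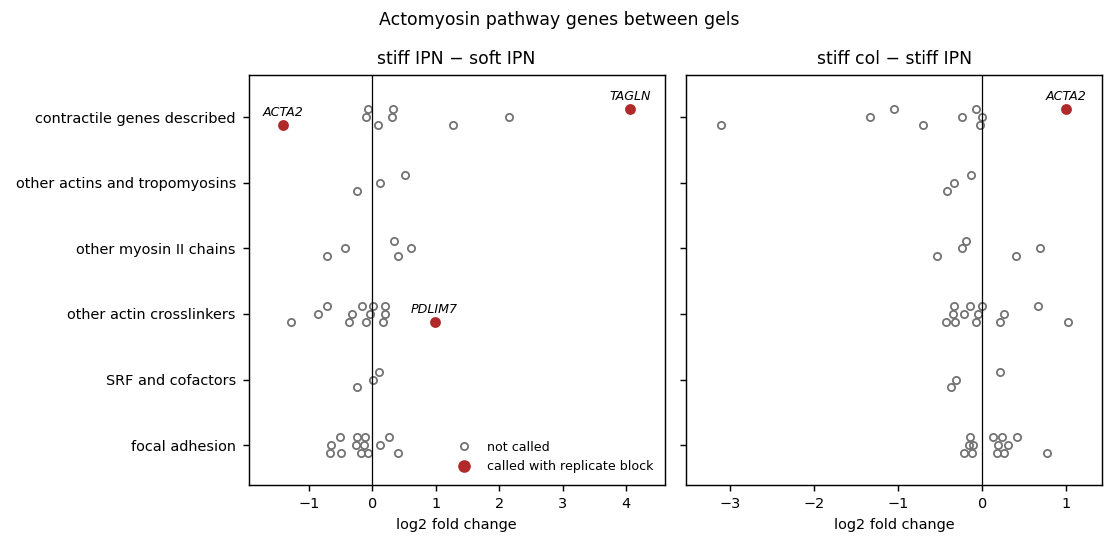
Log2 difference of each tested gene of 6 actomyosin lists for stiff against soft IPN (left) and stiff col against stiff IPN (right). Filled points are genes called by limma with the replicate block and open points are genes not called, and the called genes are ACTA2, TAGLN and PDLIM7 on the left and ACTA2 on the right.

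Markers of other cell types and states moved along with some of these genes. KRT17, a basal keratin, was at 5552 and 18767 normalized counts in soft IPNs against 19555 and 71907 in the stiff ones, a difference of 1.88 (adjusted p = 0.00669, limma with the block). CD68, a lysosomal protein abundant in macrophages, was at 4222 and 2092 in soft IPNs against 1220 and 324 in stiff IPNs, a difference of -2.24 (adjusted p = 0.0126). FAP, a protease of activated fibroblasts, stood at 287 and 177 and at 712 and 914, a difference of 1.83 (adjusted p = 0.0254). CDH1, E-cadherin, was higher by 0.91 (adjusted p = 0.0376). In stiff col gels set against stiff IPNs, 4 of 8 tested epithelial markers were called lower, against 2.47% of all genes called in either direction. Among them KRT17 differed by -2.57 (adjusted p = 0.00302, limma with the block), EPCAM by -1.71 (0.0279) and CDH1 by -1.63 (0.00781). In the same comparison FAP differed by -1.76 (0.0223) and CD68 by 1.72 (0.0187). Of the blood and endothelial markers, PTPRC and HBB were at 0 in every library, VWF did not exceed 2 normalized counts, CDH5 did not exceed 7 and PECAM1 stood between 2 and 32. Among the fibroblast markers, COL1A2 and THY1 were at 0 in every library, COL3A1 and LUM did not exceed 1 normalized count, PDGFRA did not exceed 5 and PDGFRB did not exceed 9. The other fibroblast markers were well above 0, with decorin (DCN) between 526 and 1217 and COL1A1 between 168 and 333 normalized counts.

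Of 9 epithelial markers, 8 were tested and 2 were called higher in stiff IPNs with the block, against 1.69% of all genes. Without the block neither was called by limma, at an adjusted p of 0.569 for KRT17 and 0.491 for CDH1. Summed over the 9 epithelial markers, the level was 51883 and 136707 normalized counts in stiff IPNs against 43468 and 85703 in soft IPNs. The 9 fibroblast markers summed to 1779 and 2015 in stiff IPNs and 1658 and 1175 in soft IPNs, with 4 at or under 3 reads in every library. Smooth muscle markers summed to 1616 and 1551 in stiff IPNs and 1645 and 2555 in soft IPNs, nearly all of it SMTN, which was not called. Of 8 proliferation genes, none was called between the IPNs and 7 had a negative mean difference, with a median of -0.24. The direction was not shared by the replicates, since 6 of the 8 were higher in stiff IPN within replicate 1 and all 8 were lower within replicate 2. MKI67 stood at 1166 and 3097 normalized counts for soft IPN against 1827 and 1416 for stiff IPN, a log2 difference of 0.65 within replicate 1 and -1.13 within replicate 2. The part of these markers in the ACTA2 and TAGLN results was not tested.

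The genes most like ACTA2 across the 8 libraries, by Pearson's r of log2(normalized count + 1) among 9974 genes with a mean of at least 100, were PRCP, ALOX15B, RPS7 and NGEF, with r from 0.992 to 0.993. For TAGLN they were FADS3, TALDO1, ANKLE2, IDH1 and DAPP1 (r from 0.971 to 0.983), for MYL9 RMDN3, FAM173A, SP110, TUSC2 and SDF2L1 (0.956 to 0.978), and for TPM1 CCZ1, CPNE7, ZNF18, TMCC1 and RMDN3 (0.96 to 0.984). Without replicate 2 of stiff IPN the same genes had an r of 0.98 to 0.989 with ACTA2 and 0.895 to 0.967 with TAGLN. It was 0.769 to 0.903 with MYL9 and 0.731 to 0.932 with TPM1. Libraries share gels and replicate numbers, so these values describe likeness over 8 libraries and carry no test.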

How the data were processed

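RNA-seq was measured in MCF10A cells from 4 hydrogels, with 2 libraries per gel. The submitters' notes name Trim Galore 0.3.3, TopHat2 2.0.13, SAMtools 1.1, HTSeq, DESeq2, R 3.2.0 and hg19, and the methods name Bowtie2; annotation and strand setting are not given in the sources used here. The deposited values have the unit score: the authors divided gene counts by 1 factor per library and rounded them, and 28 symbols had been turned into dates. All 8 value columns were used.

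Values were fitted as log2(value + 1) with limma 3.58.1 (R 4.3.3) across all gels, taking 1 mean per gel with trended and robustly moderated variances, for genes with at least 10 in 2 libraries. A fold change on this scale understates that of low genes. Benjamini-Hochberg adjustment covered 13369 genes. The fit was tested on simulated data. Replicate numbers were taken to pair the libraries because deviations of same-numbered libraries correlated in all 6 pairs of gels (r from 0.278 to 0.819). The lowest r, 0.278, was that of soft with stiff IPN, the pair in which ACTA2 and TAGLN were called. Stiff IPN with stiff col had an r of 0.398, and the highest was that of the collagen-containing gels. The sources do not state that a number marks a shared trial. Between gels, the fit without the block was the main test and the replicate block was an alternative to it. The block is given wherever it changed a call. Estimated totals were 13064422 to 18592366 reads per library. Positions are from GENCODE lifted to hg19.

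All 10 genes are described, and of each other pathway list the genes called between gels (at most 3 per comparison), or otherwise 2 large differences. Of the genes called between the replicate numbers, only some are named. For ACTA2, TAGLN, MYL9 and TPM1 the 5 genes most alike across libraries are named; 1 of these genes and 1 further pathway list are not reported here. The genes, lists and tests were chosen with earlier results of these data known. A planned count test was not run, since whole reads could not be recovered for libraries whose counts the scaling had lowered.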

Additional observations from a re-analysis of the deposited data

Results flagged for a closer look

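ACTB stood out because its difference between stiff and soft gels had opposite signs in the 2 kinds of gel. It was higher in stiff than in soft IPNs in both replicates (0.45 and 0.19 on the log2 scale). It was lower in stiff col gels when set against soft col:rBM gels (-0.33 and -0.15), a pair that differs in col-1 and rBM as well. The difference between the effects was -0.56 (95% interval -1.20 to 0.07, limma with the block), which was not called, with an adjusted p of 0.553 with the block and 1 without it. Leaving out 1 library, without the block, moved it to between -1.07 (without replicate 2 of soft IPN) and -0.0591 (without replicate 1 of soft IPN).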

How the results depend on the processing

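The replicate block raised the number of genes called from 0 to 511 for stiff against soft IPN, 330 for stiff col against stiff IPN, 3 for the soft gels and 2 for the interaction, and made the 3 calls of ACTA2 and TAGLN; it changed no other call of the contractile genes. Other alternatives without the block, namely a pseudocount of 0.5 or 5, no or a stricter filter, other scalings and no trend, called none of them between gels; a pseudocount of 5 gave 4 genes for stiff col against stiff IPN. Fitting only the gels compared gave 2 genes for the IPNs; with the block as well, chosen after seeing the data and with 1 residual degree of freedom, it gave 312, 261, 945 for the collagen-containing gels and 45 for the soft gels, TAGLN was no longer called in the IPNs (adjusted p = 0.0681, limma), and ACTA2 no longer between stiff col and stiff IPN (0.0958). Scaling by library totals shifted the median of all genes by 0.27 for the IPNs, -0.11 for stiff col against stiff IPN, 0.11 for the soft gels, -0.22 for the interaction and 0.13 for replicate 2 against 1. Under it MYH9 changed sign to 0.18 and TPM2 to 0.20 in the IPNs, ACTA2 to 0.010 in collagen-containing gels, MYH9 to 0.007 in soft gels and TPM2 to -0.003 in the interaction; the cause of the other changes was not tested. Leaving out single libraries without the block gave 0 to 5 genes for stiff col against stiff IPN (5 without stiff col replicate 2) and 0 in the other 4 comparisons. The log2 differences that changed sign ranged as follows. For stiff and soft IPN they were ACTB -0.18 to 0.83, ACTN1 -0.25 to 0.45, MYH9 -0.57 to 0.38, MYLK -0.31 to 0.92 and TPM2 -0.35 to 0.22. For stiff col and stiff IPN they were ACTN1 -0.17 to 0.13, MYH9 -0.58 to 0.11, MYL9 -2.95 to 0.29, MYLK -0.62 to 0.61 and TPM2 -0.37 to 0.21. For stiff col and soft col:rBM they were ACTA2 -0.63 to 0.55, ACTB -0.49 to 0.003, ACTN1 -0.13 to 0.17, MYH9 -0.57 to 0.11, MYLK -0.0817 to 0.18 and TPM1 -0.36 to 0.0575. For soft col:rBM and soft IPN they were ACTA2 -0.90 to 0.18, ACTB -0.64 to 0.37, ACTN1 -0.30 to 0.40, MYH9 -0.57 to 0.37, MYL9 -0.52 to 0.80, MYLK -0.23 to 0.73 and TAGLN -1.72 to 0.22. For the interaction they were ACTN1 -0.42 to 0.27, MYH9 -0.61 to 0.34, MYL9 -3.09 to 0.15, MYLK -0.87 to 0.36 and TPM2 -0.0727 to 0.50. Other differences kept their sign over wide ranges. For stiff and soft IPN these were ACTA2 -2.05 to -0.75, TAGLN 1.75 to 6.36, MYL9 0.54 to 3.77 and TPM1 0.60 to 1.94, and for stiff col and stiff IPN ACTA2 0.35 to 1.65, TAGLN -5.41 to -0.80, TPM1 -1.71 to -0.38 and ACTB -1.08 to -0.325. For stiff col and soft col:rBM TAGLN ran from 1.05 to 2.35 and MYL9 from 0.02 to 1.34. For the interaction they were TAGLN -4.66 (without stiff IPN replicate 1) to -0.0482 (without stiff IPN replicate 2), TPM1 -2.09 to -0.75, ACTA2 0.71 to 2.01 and ACTB -1.07 to -0.0591. For replicate 2 against 1, leaving out the libraries of 1 gel gave 1616 genes without soft IPN, 5833 without stiff IPN, 1215 without soft col:rBM and 1219 without stiff col, and without stiff IPN turned MYL9 to -0.65, which was called (adjusted p = 0.0495, limma), and TPM1 to -0.23 (0.0861), and called ACTN1 (0.0222). Scaling by totals called ACTN1 (adjusted p = 0.0115, limma) and TPM2 (0.028) between the replicate numbers. The fits that left out a library while keeping the block were chosen after seeing the data. Depth limits what can be said of MYLK and CNN1.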
